A study of Homo sapiens with 12 samples.

Results

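MDA-MB-231 cells in which part of the core regulatory element (CRE) of ETS1 had been deleted (ΔCRE) were set against the unedited wild-type line (WT) after 6 h of stimulation. The comparison used 4 of the 12 RNA-seq libraries of the series, 2 of ΔCRE cells and 2 of WT cells, and 11004 of the 24331 features of the expression table, namely those with a mean of at least 1 FPKM (fragments counted per transcript, scaled to transcript length and library size) over these 4 libraries. MDA-MB-231 is a metastatic, triple-negative breast cancer cell line of mesenchymal character. The series holds both genotypes at 0, 6 and 24 h, with 2 biological replicates each. The stimulus, P/I, is a phorbol ester (PMA) with a calcium ionophore (Ionomycin). The study made ΔCRE cells with CRISPR/Cas9, and the sources used here do not give the number of clones, so the deletion and the history of the edited line cannot be told apart. The WT libraries at 0 h served to sort genes into those that P/I induced, those that it reduced and all others.

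ETS1 is the founding member of the ETS family of transcription factors, which bind DNA through a winged helix domain at sites with a GGA core. Phorbol esters activate protein kinase C and the MAP kinase and NF-κB pathways, and calcium ionophores activate calcineurin and with it the NFAT factors. Together they switch on cytokine, protease and adhesion genes, many of which ETS1 controls jointly with AP-1, NFAT and NF-κB factors. In breast cancer cells, ETS1 is known for its link to matrix proteolysis, invasion and angiogenesis.

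A window of the ETS1 promoter is shown because the deletion was made in this part of the gene. The study gives the ends of the deletion as distances from the start of ETS1 but no coordinate. The window therefore rests on an assumed start, the one shared by 2 of the 9 ETS1 transcripts in the GENCODE annotation of GRCh37 (chr11, position 128392205, minus strand). Counted from it, these 271 bases lie at chr11:128392475-128392745, and the ends of the deletion in the cells may differ. The capitals mark TTGGAA, the letters that the study mutated as its NF-κB site, at −436 to −431. The letters given for its NFAT site, TTTTAA, are not in this window.
ETS1 promoter window: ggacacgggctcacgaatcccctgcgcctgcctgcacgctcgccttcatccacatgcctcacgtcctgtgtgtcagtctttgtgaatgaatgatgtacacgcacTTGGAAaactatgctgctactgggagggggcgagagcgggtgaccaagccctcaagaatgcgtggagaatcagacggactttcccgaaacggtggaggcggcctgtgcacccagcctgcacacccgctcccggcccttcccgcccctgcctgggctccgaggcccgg

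ETS1 itself (hg19 chr11:128328656-128457453) was induced by P/I in WT cells and stayed below the WT level in ΔCRE cells. Its level was 24.0 and 23.7 FPKM in the WT libraries at 0 h, 139 and 145 FPKM in the WT libraries at 6 h, and 62.8 and 62.2 FPKM in the ΔCRE libraries at 6 h. The ΔCRE libraries at 6 h thus lay between WT at 0 h and WT at 6 h, with no overlap, at 43.9% of the mean WT level. ΔCRE replicate 2 at 0 h, a single library, was at 16.5 FPKM, below both WT libraries of 0 h. On the log2(FPKM + 1) scale used for all tests the difference at 6 h was −1.17 (SE 0.06, adjusted p = 9.5e-06, limma over all 11004 features). This direction is the one that the genotype labels name. In these bulk samples, fewer cells of a type and less RNA per cell cannot be told apart.

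Across the 11004 features, 694 (6.31%) were lower and 402 (3.65%) were higher in ΔCRE cells at 6 h at an adjusted p under 0.05, 9.96% in either direction. Most differences were small. Among the called features, 52 (0.473% of those tested) were at least 2-fold lower and 8 (0.0727%) at least 2-fold higher on the log2(FPKM + 1) scale. In all 694 and all 402, the ΔCRE and WT libraries did not overlap, whereas 25.5% of all features had both ΔCRE libraries below and 29.4% had both above. The median difference was −0.43 for the lower and 0.37 for the higher features, against 0.01 over all features. With 2 libraries a group, the counts rested on every library. Without WT replicate 1 they were 251 lower and 108 higher, without WT replicate 2 319 and 142, without ΔCRE replicate 1 481 and 249, and without ΔCRE replicate 2 309 and 142.

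Library quality was close among the 4 libraries. The sums of FPKM were 623644 to 651080, and Pearson's r over the tested features was 0.979 between the WT replicates, 0.977 between the ΔCRE replicates and 0.972 to 0.974 between genotypes. All 6 markers of MDA-MB-231 cells (VIM, CD44, MSN, AXL, CAV1 and SPARC) were at 1 FPKM or more in each library and summed to 3233 to 3345 FPKM. The 6 luminal markers (ESR1, PGR, GATA3, FOXA1, CDH1 and EPCAM) summed to 4.61 to 6.46 FPKM, and the 4 leukocyte markers to 0.144 to 0.232 FPKM, with none at 1 FPKM. One of the ΔCRE libraries at 0 h stood apart from all others (r of at most 0.893, and gut epithelium markers at 10298 FPKM in sum against 1.16 to 1.84 in the 4 libraries of 6 h). For this reason neither ΔCRE library at 0 h entered the fit, and for baseline levels ΔCRE replicate 2 at 0 h is given alone, as a value with no replicate.

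Genes that P/I induced in WT cells were mostly not called, and more of the called ones were lower than higher. Of 326 induced features (2.96% of all, at least 2-fold higher at 6 h than at 0 h on the log2(FPKM + 1) scale with an adjusted p under 0.05), 94 were lower in ΔCRE cells (28.8%) and 31 were higher (9.51%). Of the 10591 features in neither class, 589 were lower (5.56%) and 360 higher (3.40%). The 87 reduced features (0.791%) were split evenly, with 11 lower and 11 higher. The WT libraries at 6 h enter both the class and the difference between genotypes, so these counts are a description. When the class was taken from WT cells at 24 h against 0 h, which shares no library with the difference at 6 h itself, 108 of 356 induced features (3.24% of all) were lower and 22 higher, and of 175 reduced features (1.59% of all) 19 were lower and 31 higher. Of the 94, 81 still had both ΔCRE libraries at 6 h above both WT libraries at 0 h. Without 1 library at a time, 56 (WT replicate 1) to 77 (ΔCRE replicate 1) induced features were called lower, and 11 (WT replicate 1) to 16 higher.

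**Figure D1:**
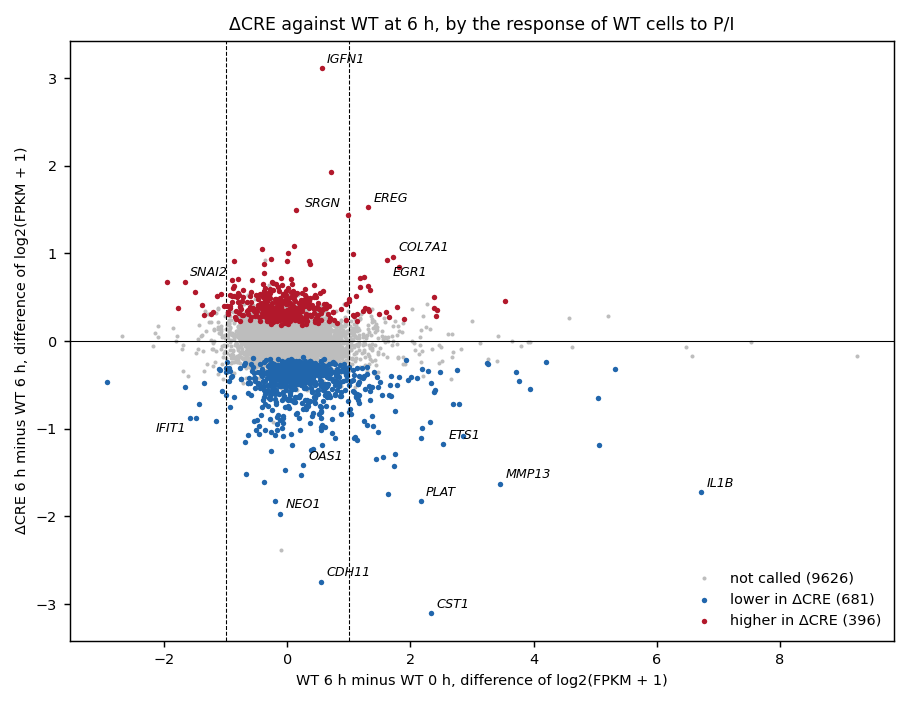
Difference between ΔCRE and WT at 6 h (y axis) against the response of WT cells to 6 h of P/I (x axis), both as differences of log2(FPKM + 1), for the 10703 tested features that name 1 gene and no small RNA. Blue points are the 681 called lower, red points the 396 called higher and grey points the 9626 not called, and dashed lines mark a 2-fold response of WT cells. IL1B, PLAT, MMP13, CST1 and ETS1 lie at the lower right, induced in WT and lower in ΔCRE, and EREG, EGR1 and COL7A1 at the upper right.

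The induced genes with the largest decreases encode secreted proteins. CST1, a cystatin that inhibits cysteine proteases, was at 37.9 and 32.1 FPKM in WT and at 2.98 and 3.37 FPKM in ΔCRE libraries at 6 h. It had been at 5.23 and 7.03 FPKM in WT cells at 0 h, so both ΔCRE libraries at 6 h lay below unstimulated WT cells. ΔCRE replicate 2 at 0 h, a single library, was at 0.509 FPKM. CST1 was thus below WT before P/I already, and it rose with P/I in both genotypes. The difference at 6 h was −3.10 (SE 0.12, adjusted p = 4.1e-06). CST4 (−1.43) and CST2 (−1.32) are near-identical neighbours of CST1 on chromosome 20, and how reads were divided among the 3 genes is uncertain. CST4 lost its call without WT replicate 1 (adjusted p = 0.058). IL1B, the inflammatory cytokine interleukin 1 beta, rose in WT cells from 0.737 and 0.453 FPKM to 167 FPKM in both libraries at 6 h. In ΔCRE cells at 6 h it was at 52.8 and 47.1 FPKM, 29.9% of WT, with a difference of −1.72 (SE 0.09, adjusted p = 9.5e-06). In ΔCRE replicate 2 at 0 h it was at 0.485 FPKM, between the WT libraries of 0 h.

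Further induced genes below WT were a group with known roles in proteolysis, signalling and survival. PLAT, tissue plasminogen activator, was at 45.4 and 43.8 FPKM in WT and 12.6 and 11.1 FPKM in ΔCRE cells. MMP13, a collagenase, was at 11.4 and 11.6 against 2.56 and 3.62 FPKM. BCL2A1, a survival protein of the BCL2 family, was at 30.5 and 40.2 against 15.5 and 14.2 FPKM. None of these 3 overlapped between genotypes, and the differences were −1.83, −1.63 and −1.18. KISS1, which encodes the metastasis suppressor kisspeptin and was named after its values were seen, was at 13.3 and 13.7 FPKM in WT and 4.56 and 5.36 FPKM in ΔCRE cells (−1.28, adjusted p = 0.00015), and at 3.22 and 3.37 FPKM in WT cells at 0 h. NFATC2, an NFAT factor that calcineurin activates, was at 5.25 and 5.45 FPKM in WT and 2.61 and 2.5 FPKM in ΔCRE cells (−0.84, adjusted p = 0.0006).

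The 31 induced genes above WT were led by EREG, the EGF receptor ligand epiregulin. It was at 11 and 12.7 FPKM in WT cells at 0 h, 31.8 and 30.1 FPKM in WT cells at 6 h, and 82.1 and 101 FPKM in ΔCRE cells at 6 h, a difference of 1.53 (SE 0.10, adjusted p = 4.4e-05). In ΔCRE replicate 2 at 0 h, a single library, it was at 19.4 FPKM, above both WT libraries of 0 h. EREG was the only one of the 31 at least 2-fold higher on the log2(FPKM + 1) scale. UCN2, the stress peptide urocortin 2, was at 14.1 and 12.8 against 30.7 and 25.1 FPKM. COL7A1, the anchoring fibril collagen, was at 5.48 and 5.14 against 11.3 and 11.2 FPKM. Neither gene overlapped between genotypes, and the differences were 1.0 and 0.96. The transcription factor EGR1, an immediate-early gene of the MAP kinase pathway, was at 17.6 and 17.2 against 33.5 and 34.5 FPKM (0.93, adjusted p = 0.00053). GDF15 (0.85), GADD45A (0.73) and DDIT3 (0.63), which are known to rise in cell stress, were higher without overlap, and all 3 kept an adjusted p under 0.05 when any 1 library was left out.

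**Figure D2:**
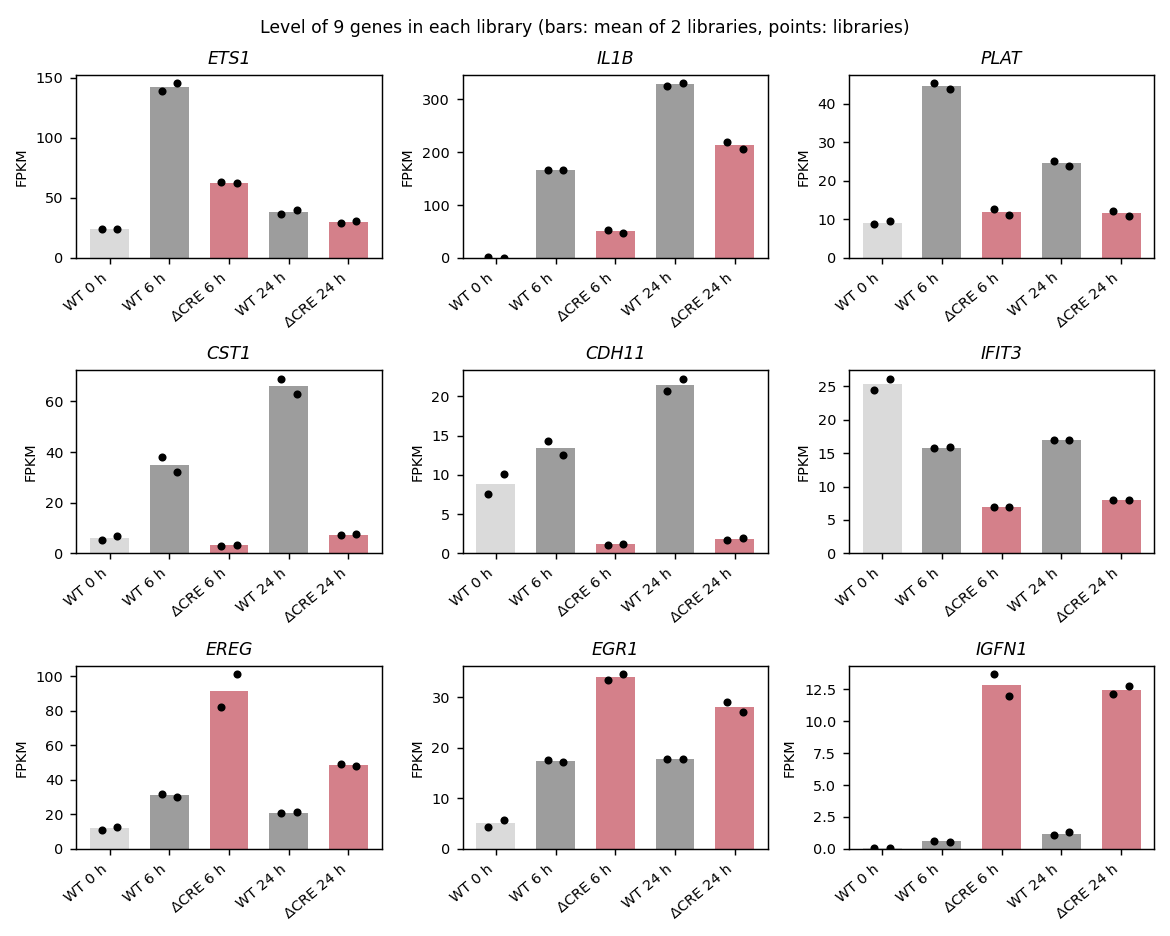
Level of 9 genes (y axes, FPKM, each from 0) in WT cells at 0 h, and in WT and ΔCRE cells at 6 h and 24 h (x axes). Bars are the mean of 2 libraries and points are the libraries. ETS1, IL1B, PLAT, CST1, CDH11 and IFIT3 are lower at 6 h in ΔCRE libraries than in those of WT, and EREG, EGR1 and IGFN1 are higher, with no overlap of the points.

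Features in neither the induced nor the reduced class, by the thresholds above, made up most of those called, 589 of the 694 lower and 360 of the 402 higher. They were also most of those tested, 10591 of 11004. Within this class 5.56% were lower and 3.40% higher, against 6.31% and 3.65% of all features. CDH11, a mesenchymal cadherin (hg19 chr16:64980683-65155919), was at 14.3 and 12.5 FPKM in WT and 1.13 and 1.16 FPKM in ΔCRE cells at 6 h (−2.74, adjusted p = 4.3e-06). CHRDL1, a secreted BMP antagonist, was at 2.52 and 2.56 FPKM in WT and listed at 0 in both ΔCRE libraries. NELL2, a secreted neural protein, was at 2.58 and 2.88 against 0.150 and 0.299 FPKM. These 3 were also low in ΔCRE replicate 2 at 0 h, at 0.653, 0.0267 and 0.146 FPKM, against 7.62 and 10.1, 3.11 and 3.05, and 3.88 and 3.82 FPKM in WT cells at 0 h. KCNAB2, a subunit of potassium channels, was at 6.07 and 5.11 against 1.46 and 1.12 FPKM, and TMEM71 at 4.30 and 4.15 against 0.789 and 0.868 FPKM.

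On the higher side IGFN1, which encodes a protein with immunoglobulin-like and fibronectin domains (hg19 chr1:201159953-201198080), was at 0.609 and 0.579 FPKM in WT and 13.7 and 12 FPKM in ΔCRE cells at 6 h. This 21.6-fold ratio was the largest among the named genes that were higher in ΔCRE cells. In ΔCRE replicate 2 at 0 h it was at 2.02 FPKM against 0.0785 and 0.0871 FPKM in WT cells. SRGN, the proteoglycan serglycin, was at 63.0 and 61.8 against 165 and 178 FPKM (1.44, adjusted p = 4.3e-06), and lies in a stretch of chromosome 10 whose genes were higher as a body. TIMP3, an inhibitor of metalloproteinases, was at 25.4 and 25.1 against 48.7 and 48.4 FPKM (0.92, adjusted p = 3e-05). DKK1, an antagonist of WNT signalling, was at 42.2 and 44.2 against 84.0 and 81.0 FPKM (0.92), and is in the same stretch of chromosome 10. EFNB2, a ligand of Eph receptors, was at 5.46 and 6.41 against 11.7 and 12.3 FPKM (0.91), and the water channel gene AQP3 at 4.78 and 4.12 against 10.1 and 9.64 FPKM (1.0).

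Among genes that P/I reduced, ITGB4, the integrin subunit of hemidesmosomes, was at 40.3 and 39.4 FPKM in WT cells at 0 h, 18.2 and 16.4 FPKM in WT cells at 6 h and 9.17 and 8.28 FPKM in ΔCRE cells at 6 h (−0.91, adjusted p = 0.00015). BMP4, a secreted morphogen, was lower at 2.87 and 3.11 against 4.51 and 4.94 FPKM (−0.52, adjusted p = 0.0038). In the other direction SNAI2, a repressor known for its part in epithelial-mesenchymal transition, was at 3.37 and 3.57 FPKM in ΔCRE against 1.94 and 1.65 FPKM in WT cells (0.68, adjusted p = 0.0033). All 3 were below the WT level of 0 h in both genotypes at 6 h.

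The called genes were then sorted by function, with lists drawn from textbook roles. Lists and members were chosen with earlier results of these data known, so their shares are a description. The list of 18 genes that the study names, ETS1 included, was lower in 18 of 18 members, with a median of −1.08, and was chosen by the study on these same samples, so its direction is not independent evidence. At an unadjusted p under 0.05 from limma, 18 were lower and 0 higher. Of the 18, the study's main text names ETS1, ENG, MMP14, NRP2, PIK3CG, ADAM8 and ADAM15. PLAT, MMP13 and ADAMTS9, given singly in other paragraphs, are on the list too but are not named in that text. Outside that list, the largest shares were in interferon-response genes and cytokines on the lower side, and in genes of cholesterol synthesis and of the antioxidant response on the higher side.

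**Figure D3:**
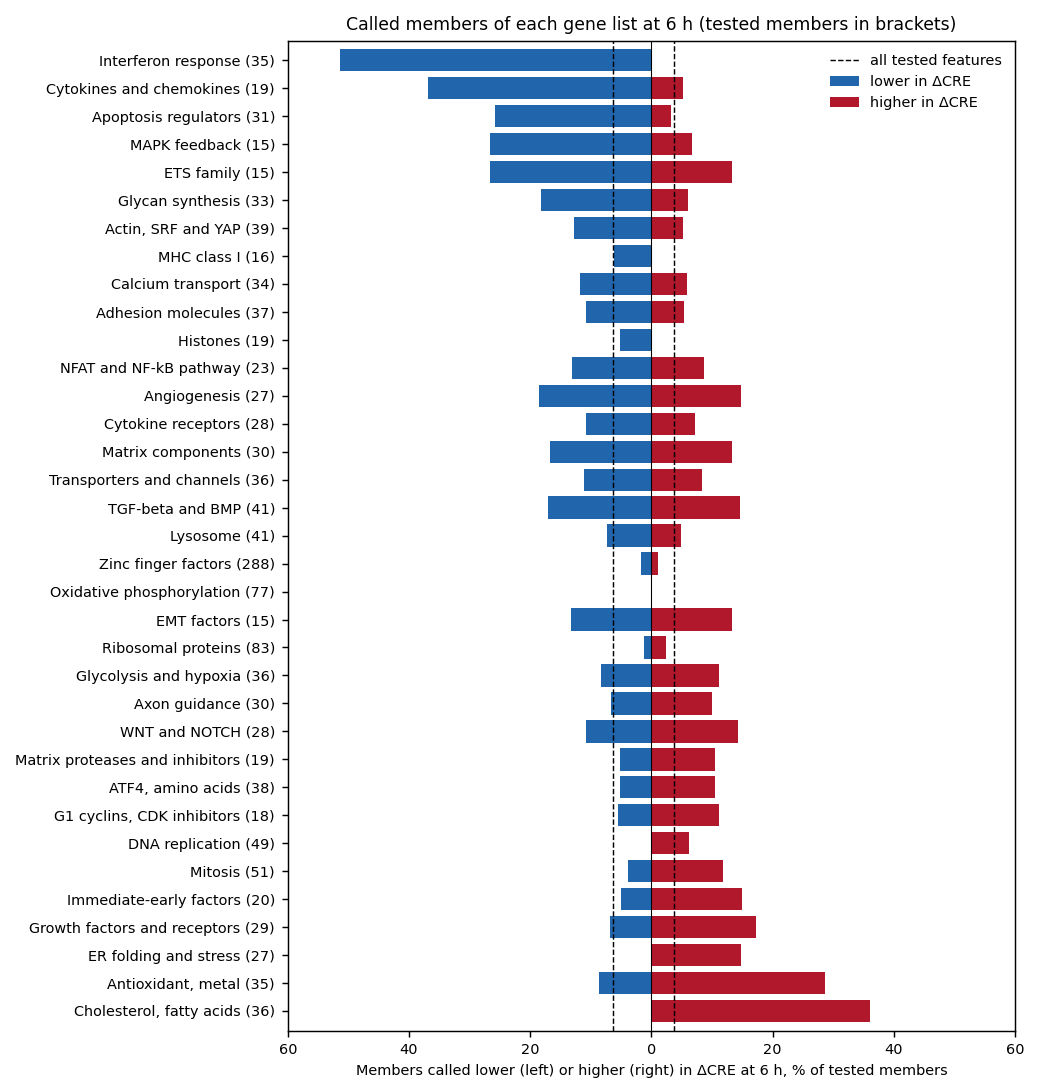
Share of the tested members of each gene list (y axis, number tested in brackets) called lower (blue, left) or higher (red, right) in ΔCRE at 6 h (x axis, %), for the reported lists with at least 15 tested members. Dashed lines mark the share of all 11004 features, 6.31% lower and 3.65% higher. Interferon-response genes stand at the top with 18 of 35 lower, and genes of cholesterol and fatty acid synthesis at the bottom with 13 of 36 higher.

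Interferon-response genes were the list with the most lower members. Type I interferons act through STAT proteins and IRF9, whose complex binds the interferon-stimulated response element (ISRE) and switches on antiviral genes, and many of these genes keep a low tonic level without added interferon. Of 35 tested members 18 were lower and 0 higher, with a median of −0.33, against 6.31% lower, 3.65% higher and a median of 0.01 over all features. At an unadjusted p under 0.05 from limma, 20 were lower and 0 higher. Without 1 library, 14 (WT replicate 1) to 17 were lower. The summed level of the 35 genes was 979 and 947 FPKM in WT and 739 and 690 FPKM in ΔCRE cells.

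The effectors among them were the lowest. OAS1, an oligoadenylate synthetase that activates RNase L, was at 5.15 and 5.42 FPKM in WT and 1.4 and 1.31 FPKM in ΔCRE cells at 6 h (−1.41, adjusted p = 0.00038). Its relative OASL was at 5.78 and 5.34 against 1.97 and 1.92 FPKM (−1.15). OAS3, another synthetase, was at 5.74 and 6.55 against 3.83 and 3.10 FPKM (−0.68). The family of IFIT proteins, which bind foreign RNA, moved in the same direction, with IFIT3 at 15.8 and 15.9 against 6.97 and 7 FPKM (−1.07, adjusted p = 1.1e-05), IFIT1 (−0.88), IFIT2 (−0.87) and IFIT5 (−0.24). The 4 IFIT genes lie together on chromosome 10 at 90 to 100 Mb, where the median difference of 54 tested features was −0.24, and whether the segment contributes to their values was not tested. Without the genes of such segments 14 interferon-response genes were lower. ISG15, a ubiquitin-like modifier, was at 134 and 131 against 85.0 and 81.3 FPKM (−0.66, adjusted p = 0.0036). IFITM2 (−0.76) and IFITM3 (−0.49), which block entry of viruses at membranes, and the guanylate-binding proteins GBP2 (−0.86), GBP3 (−0.40) and GBP1 (−0.36) were lower as well.

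The signalling members split. IRF9, the DNA-binding subunit of the STAT complex, was induced by P/I and lower in ΔCRE cells, at 14.1 and 16.6 against 9.98 and 9.35 FPKM (−0.61, adjusted p = 0.0024), as was IRF2 at 11.3 and 11.9 against 8.17 and 7.80 FPKM (−0.49). The RNA sensor DDX58 was lower at 13.1 and 14.5 against 8.61 and 9.55 FPKM (−0.55). STAT2 was at 11.9 and 11.2 against 11.9 and 10.2 FPKM (−0.06, adjusted p = 0.70), and IRF1 was at 11 and 11.2 against 11.8 and 10.3 FPKM (−0.01, adjusted p = 0.95). Neither difference passed the test, and the genotypes overlapped for both. None of the OAS, IFIT and ISG15 genes named here was in the induced class. OASL fell in WT cells from 10.2 and 9.07 FPKM at 0 h, IFIT3 from 24.5 and 26.1 FPKM and IFIT1 from 8.70 and 9.80 FPKM to 2.47 and 2.83 FPKM, and all 18 genes were also below both WT libraries in ΔCRE replicate 2 at 0 h, as were 31.9% of all features. At 24 h, 13 of the 18 were lower again.

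The starts of these genes are shown for the ISRE, whose letters were searched as GAAA, any 2 bases and GAAA on both strands in the 250 bases before the RefSeq start (GRCh38.p14, 8682 promoters of tested genes). Overlapping matches were counted as separate. The ISRE letters stood in 9 of the 13 called interferon-response genes with a promoter in the table (69.2%), in 15 of 27 tested ones (55.6%) and in 2.19% of all promoters. ISG15, IFIT1, IFIT3 and OAS3 each hold a pair of matches, in capitals.
ISG15 (chr1:1013247-1013496, plus strand): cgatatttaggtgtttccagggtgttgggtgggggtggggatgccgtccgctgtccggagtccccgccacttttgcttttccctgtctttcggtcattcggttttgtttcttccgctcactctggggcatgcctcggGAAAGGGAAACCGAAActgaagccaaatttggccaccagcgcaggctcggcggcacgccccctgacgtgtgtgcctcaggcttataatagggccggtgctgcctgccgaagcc
IFIT1 (chr10:89392373-89392622, plus strand): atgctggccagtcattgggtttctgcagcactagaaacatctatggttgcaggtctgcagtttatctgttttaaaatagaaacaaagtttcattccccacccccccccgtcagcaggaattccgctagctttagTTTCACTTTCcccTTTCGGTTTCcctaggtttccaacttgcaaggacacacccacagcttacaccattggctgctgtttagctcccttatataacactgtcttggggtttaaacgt
IFIT3 (chr10:89327747-89327996, plus strand): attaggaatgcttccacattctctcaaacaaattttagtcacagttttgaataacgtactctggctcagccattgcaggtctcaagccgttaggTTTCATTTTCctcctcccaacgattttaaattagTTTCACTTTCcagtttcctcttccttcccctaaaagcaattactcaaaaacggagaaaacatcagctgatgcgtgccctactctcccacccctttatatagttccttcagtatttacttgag
OAS3 (chr12:112938224-112938473, plus strand): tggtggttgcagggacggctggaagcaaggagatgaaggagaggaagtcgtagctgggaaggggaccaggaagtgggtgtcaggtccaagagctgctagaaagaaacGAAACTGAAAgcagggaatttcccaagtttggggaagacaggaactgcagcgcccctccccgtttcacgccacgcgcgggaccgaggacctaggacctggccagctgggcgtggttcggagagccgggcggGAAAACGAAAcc

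In the same windows the ETS letters CCGGAAG stood in 17.6% of all promoters, in 12% of those of lower genes, in 10.6% of those of higher genes, in 8.02% of those of all induced genes (19 of 237) and in 5% of those of the induced genes that were lower (3 of 60). The NF-κB letters, GGGA, any base and TTTCC, stood in 0.587% of all, in 7.59% of the promoters of induced genes and in 6.67% of those of induced lower genes (4 of 60). The AP-1 letters TGANTCA stood in 3.63% of all, in 10.5% of induced and in 11.7% of induced lower genes (7 of 60). A match describes these letters in this window and is not a binding site.

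**Figure D4:**
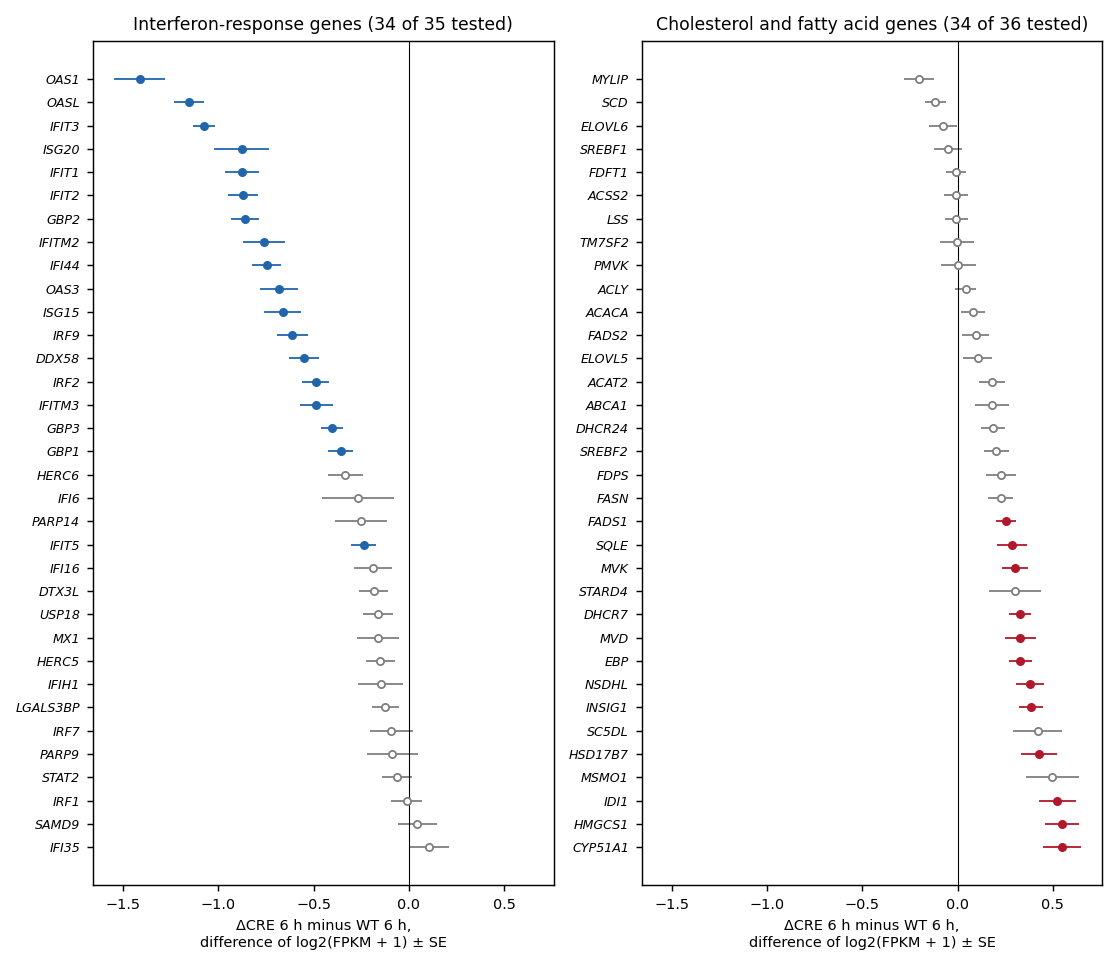
Difference between ΔCRE and WT at 6 h (x axes, log2(FPKM + 1), points with bars of 1 SE from limma) for interferon-response genes (left, 34 of the 35 tested) and genes of cholesterol and fatty acid synthesis (right, 34 of the 36 tested), sorted by value, without members that are not reported here. Filled points are called, blue lower and red higher, and open points are not called, so that 18 points on the left are blue and none is red, and 12 on the right are red and none is blue.

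Genes of cholesterol synthesis were higher. The mevalonate pathway makes cholesterol and isoprenoids from acetyl-CoA, and its genes share control by SREBP2. Of 36 tested members of the list 13 were higher (36.1%, against 3.65% of all features) and 0 lower (against 6.31%). The median was 0.22, against 0.01 over all features. At an unadjusted p under 0.05 from limma, 21 were higher and 1 was lower. HMGCS1, the synthase that makes HMG-CoA, was at 24.8 and 25.2 FPKM in WT and 35.0 and 39.2 FPKM in ΔCRE cells (0.55, adjusted p = 0.0062). IDI1, which isomerises the isoprenoid unit, was at 37 and 36.3 against 49.8 and 56.8 FPKM (0.52). These steps of the pathway thus stood above WT in both libraries, as did MVD (0.33), which acts before IDI1, and the later enzymes CYP51A1 (0.55), HSD17B7 (0.43), NSDHL (0.38), EBP (0.33) and DHCR7 (0.33).

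The higher members were those of the sterol branch more than those of fatty acid synthesis. Of the latter, only the desaturase FADS1 passed (0.25), while FASN was at 102 and 94.1 against 120 and 110 FPKM (0.23, adjusted p = 0.062) and SCD at 104 and 107 against 99.5 and 94.3 FPKM (−0.12, adjusted p = 0.24). The difference between the branches was not tested. INSIG1, a feedback inhibitor of the pathway, was higher (0.39, adjusted p = 0.0061). All 13 higher genes were also above both WT libraries in ΔCRE replicate 2 at 0 h (36.0% of all features were), and 2 were called again at 24 h. The number called rested on every library, with 2 higher without WT replicate 1, 3 without WT replicate 2, 8 without ΔCRE replicate 1 and 4 without ΔCRE replicate 2.

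The antioxidant list joins genes controlled by NRF2 with metal-binding and iron-storing proteins. Of its 35 tested members 10 were higher (28.6%, against 3.65% of all features) and 3 lower (8.57%, against 6.31%). The median was 0.12, against 0.01 over all features. EPHX1, a detoxifying epoxide hydrolase, was at 15.6 and 15.5 against 24.3 and 23.8 FPKM (0.60, adjusted p = 0.00063). It lies in a segment of chromosome 1 with a median of 0.22. The ferritin chains FTL, at 2462 and 2331 against 3441 and 3175 FPKM (0.46), and FTH1, at 1850 and 1825 against 2432 and 2379 FPKM (0.39), were higher together. SRXN1 (0.40), TXNRD1 (0.37), HMOX1 (0.37), GCLC (0.31), GCLM (0.27) and NQO1 (0.26), which repair or detoxify oxidised molecules, were higher too. The cystine transporter gene SLC7A11, from the list of amino acid genes, was at 6.43 and 6.03 against 10.1 and 11.7 FPKM (0.71, adjusted p = 0.0043). The 3 lower members were SOD2 and metallothioneins. SOD2, the mitochondrial superoxide dismutase, was at 235 and 238 against 146 and 141 FPKM (−0.72, adjusted p = 7.1e-05), and the metal-binding MT1E (−0.46) and MT2A (−0.40) were lower. Without 1 library, 2 (WT replicate 1), 3 (WT replicate 2), 5 (ΔCRE replicate 1) or 6 (ΔCRE replicate 2) members of this list were higher.

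Cytokines and chemokines divided. Of 19 tested members, 16 were induced by P/I in WT cells. Among these 16, 7 were lower and 1 was higher in ΔCRE cells, 36.8% and 5.26% of the 19. The shares were 6.31% lower and 3.65% higher over all features, and 28.8% and 9.51% over all induced features. The median of the list was −0.07. Besides IL1B, IL24, a cytokine of the IL10 family, was at 3.72 and 3.61 FPKM in WT and 1.18 and 1.16 FPKM in ΔCRE cells (−1.10, adjusted p = 0.00021), after 0.0396 and 0.0414 FPKM in WT cells at 0 h. The neutrophil attractants CXCL1 (47.0 and 44.2 against 27.2 and 30.2 FPKM, −0.65) and CXCL3 (−0.46) and the colony-stimulating factors CSF3 (−0.63) and CSF1 (−0.23) were lower. IL8 was at 1605 and 1594 FPKM in WT and 1290 and 1559 FPKM in ΔCRE cells (−0.17, adjusted p = 0.27), and IL6 at 15.2 and 16.5 against 13.6 and 13.6 FPKM (−0.21, adjusted p = 0.26), 2 genes named after their values were seen. Neither difference passed the test, although both cytokines had been under 2 FPKM at 0 h in WT cells. IL11, a cytokine of the IL6 family, was the higher one (0.31). Without 1 library the lower count was 2 (WT replicate 1), 5 (WT replicate 2), 3 (ΔCRE replicate 1) or 3 (ΔCRE replicate 2).

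Receptors and signalling genes followed. Over all features 6.31% were lower and 3.65% higher. The shares were 10.7% and 7.14% for cytokine receptors and 13.0% and 8.70% for the NFAT and NF-κB list. They were 26.7% and 6.67% for MAP kinase feedback genes and 5% and 15% for immediate-early factors. These lists are short, and whether their shares differ from those over all features was not tested. Of 28 cytokine receptors 3 were lower and 2 higher, among them CD40, a costimulatory receptor, at 21.8 and 21.6 against 12.9 FPKM in both ΔCRE libraries (−0.71, adjusted p = 0.00055), and IL27RA at 33.3 and 32.8 against 22.8 and 20.9 FPKM (−0.58). TNFRSF21 was higher at 25.8 and 26.5 against 37.8 and 38.3 FPKM (0.52). In the NFAT and NF-κB pathway 3 of 23 were lower, NFATC2, TNFAIP3 (−0.35) and TRAF1 (−0.31), and the calcineurin subunit genes PPP3CA (0.32) and PPP3CB (0.39) were higher. PPP3CA lost its call without any 1 of the 4 libraries, and PPP3CB without any but ΔCRE replicate 1. Both also lost it in a fit on the 4 libraries of 6 h only. NFKBIA, the inhibitor that NF-κB itself induces, was at 203 and 209 against 194 and 192 FPKM (−0.09, adjusted p = 0.34). Of 15 MAP kinase feedback genes 4 were lower, DUSP4 (−0.32), DUSP5 (−0.25), ERRFI1 (−0.33) and SPRED3 (−0.46), and DUSP10 was higher (0.52). Of 20 immediate-early factors EGR1, ATF3 (0.58) and KLF6 (0.28) were higher and FOSL2 was lower (−0.31). ERRFI1, TNFAIP3, KLF6 and FOSL2 each lost the call without any 1 of the 4 libraries, with largest adjusted p of 0.10, 0.096, 0.24 and 0.16. Without WT replicate 1 or ΔCRE replicate 2 no MAP kinase feedback gene was lower, and without WT replicate 2 1 was. In the NFAT and NF-κB list 1 was lower without any library but ΔCRE replicate 1, without which 2 were. Of the immediate-early factors 1 was higher without any library but WT replicate 1, without which 2 were.

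In the ETS family 4 of 15 tested members were lower (26.7%) and 2 higher (13.3%), with a median of −0.10. Over all features 6.31% were lower and 3.65% higher. ELK3, a repressor of the ternary complex group, was at 40.6 and 37 against 28.1 and 26.5 FPKM (−0.49, adjusted p = 0.0023), and ETV6 (−0.34) and ETV3 (−0.25) were lower. ELF4 was at 18.2 and 18.0 against 26.5 and 23.2 FPKM (0.43, adjusted p = 0.0096), and ELF1 was higher by 0.29. ETS2, the nearest relative of ETS1, was at 10.1 and 9.77 FPKM in WT and 12.1 and 12 FPKM in ΔCRE cells (0.25, adjusted p = 0.073), which did not pass. ETV6, ETV3 and ELF1 lost the call without any 1 library, which left 2 lower each time, and ELF4 lost it without any but ΔCRE replicate 2.

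Survival genes were on the lower side. Among 31 apoptosis regulators, 8 were lower (25.8%, against 6.31% of all features) and 1 was higher (3.23%, against 3.65%), with a median of −0.05. They included both survival and death factors. BCL2A1 was described above, and BCL2L1, another survival protein, was lower by 0.31 on the log2 scale. BNIP3, a mitophagy receptor of the BCL2 family, was at 46.3 and 43.5 against 24.6 and 25.6 FPKM (−0.81, adjusted p = 0.00023), and the caspase gene CASP4 (−0.27) and the BH3 protein gene BID (−0.39) were lower. BNIP3 lies in a segment of chromosome 10 with a median of −0.27. Without 1 library, 4 (WT replicate 1) or 5 (each of the others) were lower.

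Matrix, adhesion and cell contact genes moved in both directions. Over all features 6.31% were lower and 3.65% higher. The shares were 17.1% and 14.6% in the TGF-β and BMP list and 16.7% and 13.3% for matrix components. They were 10.8% and 5.41% for adhesion molecules and 18.5% and 14.8% for angiogenesis genes. Whether these shares differ from those over all features was not tested. In the TGF-β and BMP list 7 of 41 were lower and 6 higher, with a median of 0.04. FSTL1, a secreted follistatin-like protein, was at 23.7 and 23.9 against 11 and 10.9 FPKM (−1.05, adjusted p = 1.5e-05), and the receptor gene TGFBR2 (−0.68) and the latency proteins LTBP1 (−0.56) and LTBP4 (−0.53) were lower, while the ligand gene TGFB2 (0.60), the activin subunit INHBA (0.45) and the activin antagonists FST (0.51) and FSTL3 (0.53) were higher. Of 30 matrix components 5 were lower, led by CHRDL1 and the glycoprotein TNC at 11.4 and 11.6 against 7.14 and 5.90 FPKM (−0.74), and 4 were higher, led by SRGN and COL7A1. Of 37 adhesion molecules 4 were lower and 2 higher, among them ITGA5, the fibronectin receptor subunit, at 49.2 and 46.1 against 30.7 and 28.4 FPKM (−0.67, adjusted p = 0.00034), and CLDN7, a tight junction claudin (−1.06). Of 19 matrix proteases and inhibitors outside the study's own list, 2 were higher, TIMP3 and PLAU (0.24). Among 27 angiogenesis genes 5 were lower and 4 higher, with EFNA1 at 10.8 and 12.6 against 5.37 and 5.68 FPKM (−0.96, adjusted p = 0.0013) and EFNB2 in opposite directions. The lower matrix components were 1 without WT replicate 1 and 2 without WT replicate 2 or ΔCRE replicate 2. The lower angiogenesis genes were 3, 2, 5 and 3, and the higher 1, 2, 1 and 1, without WT replicates 1 and 2 and ΔCRE replicates 1 and 2 in turn. No adhesion molecule was higher without any 1 library.

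Moesin, MSN, which links actin to the membrane, was at 294 and 299 against 218 and 203 FPKM (−0.49, adjusted p = 0.00096). The growth factor list had 2 of 29 lower and 5 higher, with the receptor FGFR1 at 5.57 and 5.81 against 9.32 and 8.6 FPKM (0.57, adjusted p = 0.0063) and the binding protein IGFBP7 at 75.4 and 75.8 against 46.1 and 45 FPKM (−0.72, adjusted p = 0.0029). In the WNT and NOTCH list 3 of 28 were lower, NOTCH4 (−1.02), NOTCH1 (−0.61) and FZD1 (−0.45), and 4 higher. Lower and higher shares were 6.90% and 17.2% for growth factors and 10.7% and 14.3% for WNT and NOTCH. Over all features they were 6.31% and 3.65%. The higher growth factor genes were 1, 3, 4 and 2, and the higher WNT and NOTCH genes 1, 1, 1 and 2, without WT replicates 1 and 2 and ΔCRE replicates 1 and 2 in turn.

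Housekeeping and growth functions differed among themselves. Over all features 6.31% were lower and 3.65% higher. Higher shares were 11.8% for mitosis genes, 6.12% for DNA replication genes and 14.8% for folding genes. Lower shares were 3.92%, 0% and 0%. None of 77 oxidative phosphorylation genes was called in limma, with 2 lower and 7 higher at an unadjusted p under 0.05, and the median was 0.05. Of 83 ribosomal protein genes 1 was lower and 2 higher, and of 288 zinc finger genes 5 were lower and 3 higher, both below the share over all features. Mitosis genes had 2 of 51 lower and 6 higher with a median of 0.13 (2 lower and 22 higher at an unadjusted p under 0.05), with CCNB2 at 71.7 and 78.2 against 96.6 and 95.9 FPKM (0.36, adjusted p = 0.0057). Of 49 DNA replication genes 3 were higher and 0 lower in limma (11 higher and 1 lower at an unadjusted p under 0.05), among them RRM2, a subunit of ribonucleotide reductase, at 119 and 120 against 150 and 157 FPKM (0.35, adjusted p = 0.0034). Of 27 folding genes of the endoplasmic reticulum 4 were higher and 0 lower (8 and 0 at an unadjusted p under 0.05), with DDIT3 the highest. Without 1 library, 0 (WT replicate 1), 2 (WT replicate 2), 4 (ΔCRE replicate 1) or 2 (ΔCRE replicate 2) mitosis genes were higher, and 1 gene each of the DNA replication and folding lists. Of 16 MHC class I genes 1 was lower (6.25%, near the share over all features) and 0 higher (3 lower and 1 higher at an unadjusted p under 0.05 from limma).

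Neighbouring genes were examined in segments of the genome. Of 275 segments of 10 Mb with at least 10 tested features, 13 had a median difference of at least 0.2 in either direction. They hold 688 features (6.25%), and since they were chosen by the same difference at 6 h, the number of called features in them says nothing further. On chromosome 10 the medians were 0.32 to 0.44 from 50 to 80 Mb and −0.23 to −0.27 from 90 to 110 Mb and from 120 to 140 Mb. Segments of chromosome 17 below 20 Mb (−0.23 and −0.20), of chromosome 9 from 130 to 140 Mb (−0.26) and of chromosome 8 from 20 to 30 Mb (−0.26) were lower. Those of chromosome 1 from 220 to 230 Mb (0.22) and of chromosome 8 from 70 to 80 Mb (0.23) were higher. SRGN, DKK1, PPP3CB, IFIT1, IFIT2, IFIT3, IFIT5, BNIP3, NOTCH1, DUSP4, DUSP10, EPHX1, PLAU and CLDN7 lie in such segments, and what part the segments have in their values was not tested. ETS1, IL1B, PLAT, MMP13, CST1, CDH11, OAS1, OASL, EREG, EGR1, HMGCS1 and IGFN1 lie in segments whose median was between −0.16 and 0.07.

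The called features were then followed at 0 h and 24 h. The WT libraries at 0 h and all libraries at 24 h had a part in choosing them, since they entered the fit and its estimate of the spread, and ΔCRE replicate 2 at 0 h had none. In ΔCRE replicate 2 at 0 h, 554 of the 694 lower features (79.8%) were below both WT libraries at 0 h, against 31.9% of all features, and 333 of the 402 higher features (82.8%) were above both, against 36.0%. Of the 94 induced lower features 65 were below at 0 h already. At 24 h, in which 440 features (4.0%) were lower and 273 (2.48%) higher, 311 of the 694 were lower again (44.8% of the 694 and 70.7% of the 440) and 169 of the 402 were higher again (42.0% and 61.9%). The sign was the same at 24 h for 641 of the 694 and 382 of the 402, and 1 feature was called in opposite directions.

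**Figure D5:**
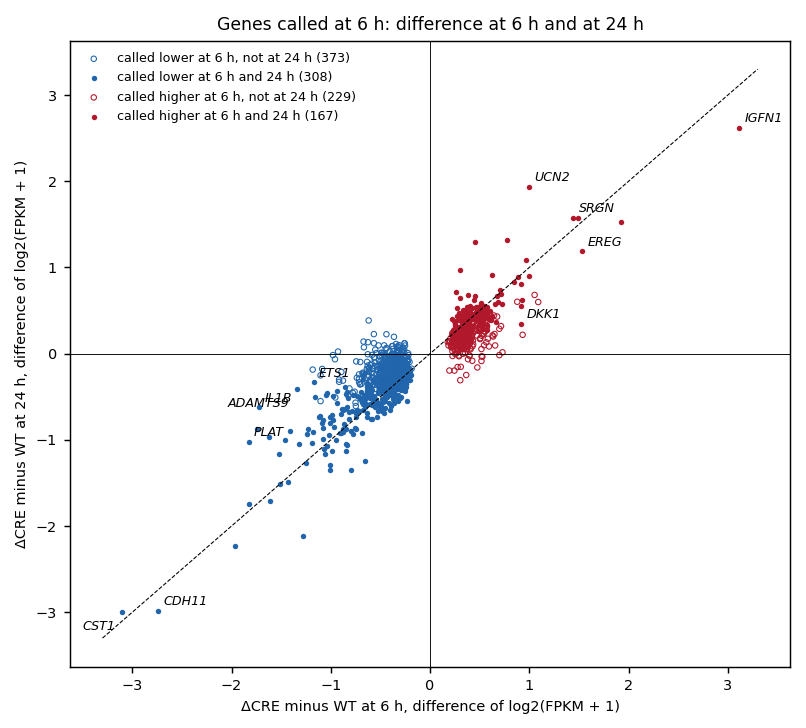
Difference between ΔCRE and WT at 24 h (y axis) against that at 6 h (x axis), both as differences of log2(FPKM + 1), for the 681 lower (blue) and 396 higher (red) features at 6 h that name 1 gene and no small RNA. Filled points, 308 lower and 167 higher, were also called in the same direction at 24 h, and the dashed line marks equal differences. ETS1, IL1B, PLAT and ADAMTS9 lie above the line, nearer to 0 at 24 h than at 6 h.

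The difference between the time points was itself tested, and 24 of the 11004 features (0.218%) differed. ETS1 was among them, with a difference of −1.17 at 6 h and −0.33 at 24 h, when WT cells had come down to 36.2 and 39.7 FPKM and ΔCRE cells were at 29.3 and 30.7 FPKM. IL1B, which was still rising in WT cells (326 and 330 FPKM at 24 h), was at 220 and 206 FPKM in ΔCRE cells at 24 h, so that its difference went from −1.72 to −0.62. PLAT went from −1.83 to −1.02 and ADAMTS9 from −1.34 to −0.41. CST1 was at −2.99 at 24 h, CDH11 at −2.98 and IGFN1 at 2.62, against −3.10, −2.74 and 3.11 at 6 h, and the difference between the time points did not pass the test for any of them.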

How the data were processed

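Total RNA of WT and ΔCRE MDA-MB-231 cells, unstimulated or after 6 or 24 h of P/I, was sequenced from stranded mRNA libraries, 2 per group. The authors mapped reads to hg19 with TopHat and estimated FPKM with Cufflinks, and deposited 1 FPKM table of 24331 features. Annotation, scaling between libraries and read depth are not given in the sources used here, so precision could be judged only from the spread between replicates.

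Values were tested as log2(FPKM + 1), which understates changes of low genes, with limma 3.58.1 in R 4.3.3 (lmFit, eBayes with trend, two-sided), on the 11004 features with a mean of at least 1 FPKM over the 4 libraries. The fit used 10 libraries in 5 groups, without the ΔCRE libraries at 0 h, and had 5 residual degrees of freedom. P-values were adjusted by Benjamini-Hochberg over all 11004 features, and a call is an adjusted p under 0.05. The study states 2 biological replicates, with nothing more on separate cultures. Induced and reduced genes passed the same threshold with at least 2-fold in WT at 6 h against 0 h. For medians over 10 Mb segments, each feature was placed by the midpoint of its hg19 coordinates. Named genes were the 6 largest differences per class and direction, up to 4 per list, the ETS family and the genes the study names, and all other genes were chosen after their values were seen. Members and lists were chosen with earlier results of these data known. Scripts were tested on simulated data. The ETS1 window came from GRCh37 with GENCODE v44lift37. Promoters came from RefSeq and matched 8733 of 10814 features that name 1 gene. Figures were drawn with matplotlib in Python. Some genes and 1 gene list are not reported here, although counts over a list include every tested member.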

Additional observations from a re-analysis of the deposited data

Results flagged for a closer look

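For 7 of the named genes the difference between ΔCRE and WT cells at 24 h differed from that at 6 h (adjusted p under 0.05 of the difference between time points, limma over 11004 features). In units of log2(FPKM + 1), 24 h minus 6 h, it was 1.10 for IL1B, 0.94 for ADAMTS9, 0.84 for ETS1, 0.80 for PLAT and 0.57 for FSTL1, which were all lower in ΔCRE cells at 6 h. It was 0.94 for UCN2, which was farther above WT at 24 h, and −0.57 for DKK1, which was nearer to WT.

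In the library labelled ΔCRE replicate 1 at 0 h, which entered only the fit on all 12 libraries, 278 genes reached at least 10 FPKM although none of the remaining 11 libraries had them at 0.5 FPKM.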

How the results depend on the processing

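The direction of the counts, more genes lower than higher, was the same under every setting tried. A pseudocount of 0.1, no filter on low values, a minimum of 5 FPKM, scaling to TPM, quantile normalization, median-centring, 11 libraries, and no trend kept the counts of lower and higher genes within 1.5 times of 694 and 402. Among calls the share of higher genes was 36.7%, against 30.2% with TPM, 41.5% with median-centring and 44.5% with the replicate block. The 4 libraries of 6 h alone gave 470 lower and 247 higher. All 12 libraries gave 26 lower, 7 higher, 10 induced lower and 2 induced higher, and ETS1 stayed at −1.17 with an adjusted p of 0.62, where the pair of ΔCRE libraries at 0 h had 3434 features 2-fold or more apart. With the replicate block, 1024 were lower and 820 higher, all 1096 calls among them. Same-numbered samples deviated together with r of 0.119, 0.098 and 0.201 at 0, 6 and 24 h, so the numbers were not taken to pair them. A minimum of 2-fold left 52 lower, 8 higher, 22 induced lower and 1 induced higher. With no minimum fold for induction, 333 induced genes were lower and 107 higher. Without 1 library at a time, 251 to 481 were lower, 108 to 249 higher, 56 to 77 induced lower and 11 to 16 induced higher, and of the 169 named genes called, 42 to 71 lost the call. Uncalled values turned sign in such fits, with ranges of −0.19 to 0.092 for GABPA, −0.21 to 0.0018 for ELF2, −0.0624 to 0.0767 for ERF, −0.0868 to 0.102 for the feature of ATP5E and SLMO2, and −0.15 to 0.30 for TFF3. The cause was not tested.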
